A study of Mus musculus with 24 samples.

Results

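The change in RNA levels between the stage labelled L2C and the morula was compared between mouse embryos with and without a Ttf1 knockout. For each gene the log2 change from L2C to morula in wild-type embryos was subtracted from the same change in Ttf1 knockout embryos. This difference is called the interaction below. A value above 0 means that the gene rose more, or fell less, in the knockout than in normal development. A value below 0 means that it rose less or fell more. The comparison used 16 of the 24 libraries of the series, chosen by their titles: 4 of wild-type L2C, 4 of wild-type morulae, 4 of Ttf1 knockout L2C and 4 of Ttf1 knockout morulae. The other 8 libraries, 4 of Zfp622 knockout L2C and 4 of Zfp622 knockout morulae, served as an outside reference.

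All embryos came from B6D2F1 females aged 3 to 4 weeks that were mated with males of the same strain, and each library was made from 10 pooled embryos. For a knockout, Cas9 protein at 100 ng/μL and 3 guide RNAs at 50 ng/μL each were injected into the zygote cytoplasm, so a pool can mix embryos and cells with different edits. The wild-type libraries carry the genotype WT and the title NC, and whether wild-type zygotes were injected is not given in the sources used here. Polyadenylated RNA was primed with oligo-dT and amplified with template switching before paired-end sequencing. Levels are given in CPM, the counts per 1000000 counts of the library, scaled over all 24 libraries. They compare one gene between libraries and not different genes, since they are not corrected for length. Nothing in the labels says that pools of a group came from separate litters or days, so the p-values measure the spread between these pools.

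Ttf1 encodes transcription termination factor 1, which binds the terminator elements of ribosomal RNA genes and takes part in stopping RNA polymerase I and in organising the chromatin of those genes. In mouse embryos, the passage from the 2-cell stage to the morula removes transcripts stored by the oocyte, ends the short burst of 2-cell transcription and builds up ribosomes, metabolism and the first lineage programmes. The p53 pathway is known to respond to disturbed ribosome production as well as to DNA damage. Cas9 cuts DNA, which can itself set off a p53 response. Since it is not stated whether wild-type zygotes were injected, effects of injection or cutting cannot be told apart from loss of Ttf1.

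Total counts ran from 10538723 to 12686381 in the 8 L2C libraries and from 14363767 to 17807596 in the 8 morula libraries. Stage markers other than Sox2 matched the labels. Tdpoz4 and Zscan4d, transcripts of the 2-cell stage, were at 92.8 to 160 and 37.7 to 102 CPM in every L2C library. Krt8, a keratin of the outer cells of the morula, was at 74.6 CPM or more in every morula library and at 1.09 CPM or less in every L2C library. Sox2, taken as a morula marker, had means of 1.66 CPM at L2C and 2.37 CPM at morula in wild type. In the knockout its means were 1.24 and 0.756 CPM, all scaled by total counts alone. All Ttf1 knockout libraries carried 1 sequencing lane number while the wild-type libraries and those of the Zfp622 knockout carried another, per the file headers. A lane effect that is equal at both stages is removed by the interaction, while one that differs between stages cannot be told apart from the knockout. One wild-type L2C library (replicate 4) and wild-type morula replicates 3 and 4 carried a further index number. Summed over 32 markers of cells that accompany the oocyte, the mean was 97.7 CPM in knockout and 48.8 CPM in wild-type morulae. For 20 blood markers it was 29.0 and 12.9 CPM, and for 22 sperm markers 21.5 and 18.8 CPM, all scaled by total counts alone. Of single markers, Hbb-bs and S100a8 (blood) were at 0 in all 16 libraries, and Has2, Ptx3 and Fshr (cumulus and granulosa cells) were at 0 in all 8 morula libraries. Other markers of these cells were not at 0: Cyp19a1 (granulosa cells) reached 0.0646 and Inha 0.13 CPM in a knockout morula library, and Prm2 (sperm) and Hba-a1 (red blood cells) had means of 0.682 and 6.63 CPM in knockout and 0.0174 and 1.61 CPM in wild-type morulae, scaled by total counts alone.

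Ttf1 itself (chr2:29060262-29087656, GRCm38) was at 77.4, 73.9, 68.0 and 76.5 CPM in the wild-type L2C libraries and at 50.7, 54.0, 53.7 and 53.4 CPM in the wild-type morula libraries. The knockout libraries held 26.9, 22.4, 31.7 and 27.4 CPM at L2C and 30.8, 32.9, 28.9 and 31.3 CPM at morula. The knockout libraries were thus lower than wild type at both stages with no overlap, and the gap was smaller at morula. In wild type Ttf1 fell by 0.48 ± 0.10 (SE) on the log2 scale between the stages, whereas the knockout change was 0.19 ± 0.11, giving an interaction of 0.67 ± 0.15 (adjusted p = 0.0016, edgeR). Transcript level is not a measure of editing, since an edited allele can still be transcribed.

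Of 18864 genes tested, 3992 had a called interaction, which is 21.2% (edgeR quasi-likelihood test, Benjamini-Hochberg adjusted p of at most 0.05). Among these, the interaction was above 0 for 2361 genes (12.5% of those tested) and below 0 for 1631 (8.65%), and 2006 of the called genes differed by at least a factor of 2. The median over all tested genes was 0.113. Among the 11563 genes with a mean of at least 10 counts in each of the 4 groups, 1488 were called above and 1535 below, with a median of -0.03, so the excess of calls above 0 sat among genes with few reads in at least 1 group. Counts given below for a gene list are of members called above or below 0, to be read beside the 21.2% called among all genes. In each of the 16 fits that left out 1 library, 2581 of the 3992 genes were called in the same direction. Leaving out the 3 wild-type libraries with a further index left 2132 calls (1319 above, 813 below), and of the 3992 calls 2041 were made again in the same direction and 0 in the opposite one.

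**Figure D1:**
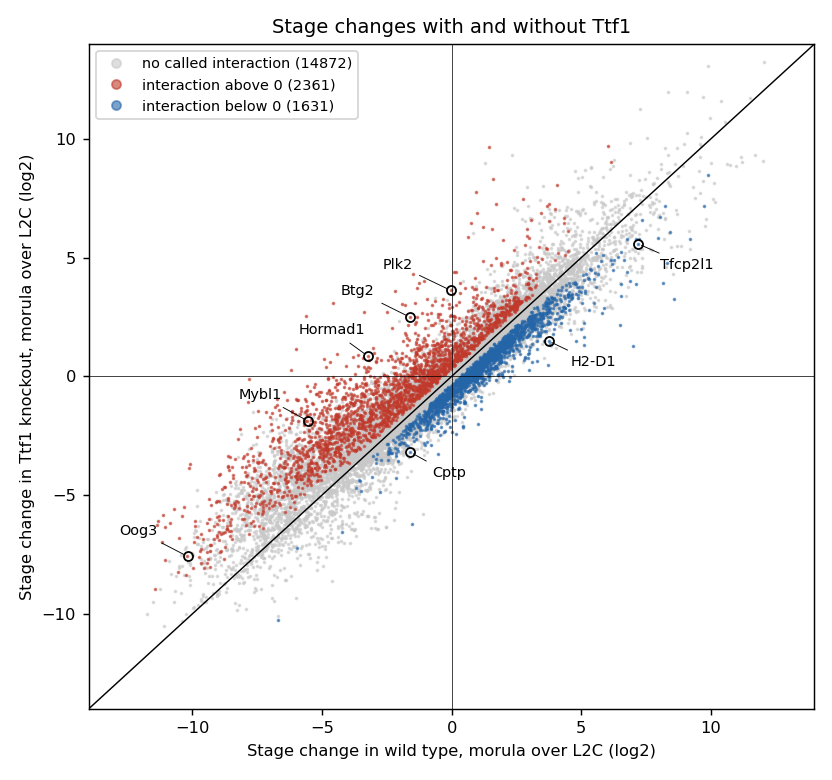
Log2 change from L2C to morula of each of the 18864 tested genes in wild type (x axis) and in the Ttf1 knockout (y axis); the diagonal line marks equal changes, and red and blue points are the 2361 and 1631 genes with a called interaction above and below 0. Red points gather above the diagonal on the left, where genes fall in normal development, and 8 genes described in the text are circled.

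Most of development went the same way in both genotypes. Between the stages, 15842 genes (84.0%) changed in wild type and 15421 (81.7%) in the knockout. Across the 18864 genes, the knockout and the wild-type stage changes, which share no library, had a Pearson r of 0.935 with a slope of 0.822 (a description over genes, which are not independent replicates). In pooled embryos, fewer cells of a kind and less RNA per cell cannot be told apart. Sorted by what the gene does normally, 1616 called genes fell less in the knockout, and a further 2.61% of calls turned from a fall to a rise. A smaller rise was found for 1099 genes, and 50 turned from a rise to a fall. Larger changes were fewer, with 410 larger rises and 289 larger falls. A further 231 called genes above 0 and 193 below 0 had no called change in wild type. Calls made up 21.8% of genes that rise normally, 23.1% of genes that fall normally and 14% of genes with no called normal change.

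**Figure D2:**
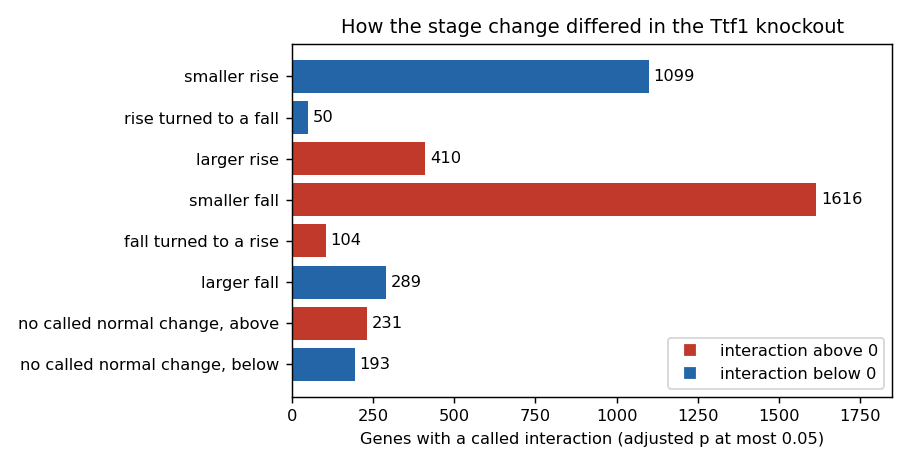
Number of genes with a called interaction in each class of altered stage change; bar length is the count, red bars are interactions above 0 and blue bars below 0. Smaller falls (1616) and smaller rises (1099) outnumber larger rises (410) and larger falls (289).

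A change that was smaller or turned round in the knockout accounted for 2869 (80.4%) of the 3568 called genes with a normal change, and a larger change for 699 (19.6%). The wild-type libraries enter both the normal change and the interaction, which by construction raises that share. When the direction was taken from the Zfp622 knockout libraries instead, 2359 genes (68.3%) had a smaller or turned change and 1097 (31.7%) a larger one. That direction is not normal development either. Btg2, which fell in wild type, had means of 16.4 CPM in Zfp622 knockout L2C and 111 CPM in Zfp622 knockout morulae. A gene altered alike in both knockouts is thus sorted by its altered direction, so few can count as turned and neither share is unbiased. Library scaling moved the balance between larger rises and larger falls. Scaled by total counts alone, larger rises numbered 268 and larger falls 529, beside 410 and 289 in the main fit. Smaller rises then numbered 918 and smaller falls 1716, with 92 rises and 89 falls turned round.

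The typical smaller fall was large. Over the 1616 genes, a median of 7.62% of the L2C level was left in wild-type morulae and 31.4% in knockout morulae. Of these genes, 724 averaged under 10 counts in wild-type morulae and 73 were at 0 in every wild-type morula library, where fitted values depend on the prior count. For the 892 with at least 10 counts on average in every group, the medians were 19.3% and 42.9%. The 1099 smaller rises went from a median of 23.1 CPM at L2C to 93.7 CPM at morula in wild type, and from 26.8 to 62.6 CPM in the knockout.

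Effects of the knockout at each stage were called separately. Of the 3992 called genes, 3264 (81.8%) differed between knockout and wild type at morula and not at L2C, 156 (3.91%) at L2C and not at morula, and 491 (12.3%) at neither stage taken alone. Effects were called at both stages in opposite directions for 76 genes and in the same direction for 5. A stage without a call can still add to the interaction: the median effect of the smaller rises was 0.23 at L2C and -0.52 at morula, and that of the larger rises -0.27 and 0.40. Rises turned to falls had medians of 0.24 and -0.65, and smaller falls of -0.16 and 1.51. Over all genes, 389 (2.06%) differed at L2C and 5821 (30.9%) at morula.

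As a summary per library, each library was placed on the axis from the mean Zfp622 knockout L2C profile, set to 0, to the mean Zfp622 knockout morula profile, set to 1. The wild-type morula libraries lay at 1.0347, 1.0423, 1.0474 and 1.043, and the knockout morula libraries at 0.9682, 0.9616, 0.9588 and 1.0. Every knockout morula library lay below every wild-type one, and knockout replicate 4 was the nearest to wild type. The knockout mean was lower by 0.0697 (two-sided exact permutation p = 0.0286, the smallest that 4 against 4 allows). At L2C the means differed by 0.0161 (exact permutation p = 0.4), and the difference between the stages was -0.0858 (permutation p = 0.00571 over 4900 regroupings). The regroupings exchanged knockout and wild-type labels within each stage. That last p is therefore exact only for no knockout effect at either stage. A morula effect alone can lower it, so it does not test whether the effects at the stages were equal.

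Genes were also grouped by their change in the Zfp622 knockout libraries. These libraries are not among the groups compared in the interaction, but they share its filter, scaling and estimate of spread. A gene altered alike in both knockouts is binned by its altered change, so the bins are not those of normal development. The genes that fell most in the Zfp622 knockout had the highest interactions. For the 790 genes that fell by more than 6 on the log2 scale the median interaction was 1.064, and for the 1282 that fell by 4 to 6 it was 0.97. The median was 0.008 for genes that fell by up to 1, and -0.038 for the 875 genes that rose by more than 4. With at least 10 counts in every group, the median went from 0.754 for falls of 4 to 6 to -0.219 for rises of more than 4.

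**Figure D3:**
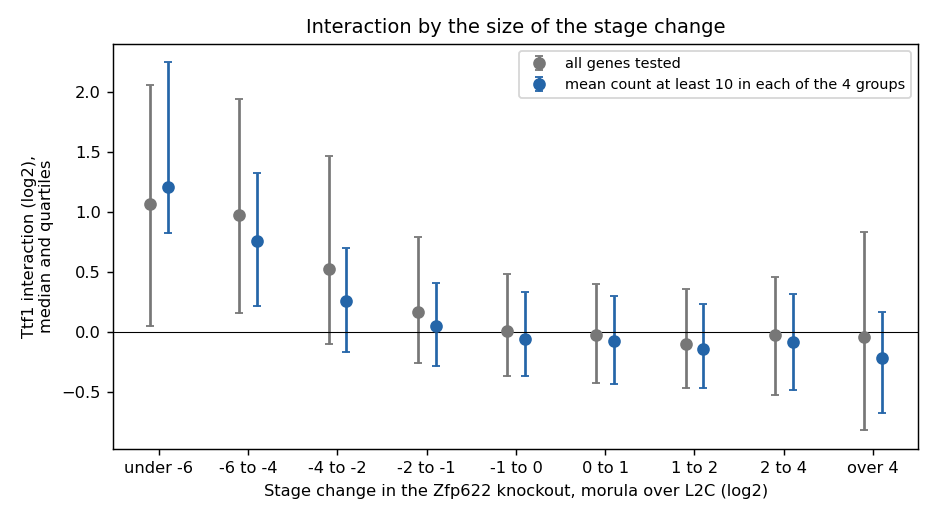
Median (points) and quartiles (bars) of the Ttf1 interaction, in log2, for genes binned by their log2 change from L2C to morula in the Zfp622 knockout; grey shows all genes tested and blue those with a mean of at least 10 counts in each of the 4 groups. Medians lie at 0.97 and 0.754 for falls of 4 to 6, and within 0.22 of 0 for all rising bins.

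Many transcripts stored by the oocyte fell less in the knockout. Of 78 tested maternal oocyte transcripts, 44 were called above 0 and 2 below (59% beside 21.2% of all genes), with a median of 1.48 beside 0.113 for all genes. Their median stage change was -6.27 in wild type and -4.89 in the knockout. In the 37 members counted in every group, 21 were called above and 2 below, with a median of 1.03. The summed level of the list was 6487, 6009.5, 6396 and 6272 CPM in the wild-type morula libraries and 8285, 8973, 8618 and 7507 CPM in the knockout ones. The groups did not overlap at morula, whereas they did at L2C, where the sums ran from 27819 to 33736 CPM in wild type and from 23461 to 28664 CPM in the knockout.

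Oog3 (chr4:144157557-144162663), an oocyte gene of a large family, was at 2383, 2404, 2701 and 2854 CPM in wild-type L2C and at 1.76, 2.15, 2.63 and 2.21 CPM in wild-type morulae. The knockout went from 2624, 2189, 2662 and 2565 CPM to 14.8, 15.4, 10.3 and 11.9 CPM. Over 99% of the transcript was thus lost in both genotypes, but every knockout morula library kept more than every wild-type one: 0.522% of the L2C level remained in the knockout and 0.0846% in wild type (interaction 2.61 ± 0.21 SE, adjusted p = 1.24e-08, edgeR). Omt2b, another oocyte transcript, had an interaction of 2.29 ± 0.23, and Khdc1c one of 1.73. Reads of members of such gene families can map to several copies, so their single levels are uncertain.

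Smaller falls were also seen in genes outside such families. Mybl1 (chr1:9667415-9700209), a MYB transcription factor of meiosis, was at 74.9 to 92.2 CPM in wild-type L2C and 68.2 to 80.6 CPM in knockout L2C. It was at 1.76, 1.32, 2.13 and 1.91 CPM in wild-type morulae and at 24.4, 26.9, 12.9 and 15.8 CPM in knockout morulae. It had fallen 47.3-fold in wild type and 3.66-fold in the knockout (interaction 3.69 ± 0.31 SE, adjusted p = 2.23e-08, edgeR). Tex15, needed for meiosis and for silencing transposons in germ cells, had an interaction of 3.24 ± 0.34, and Stox1, a winged-helix transcription factor, one of 3.62 ± 0.52. Rb1, which restrains the cell cycle and also RNA polymerase I, averaged under 10 counts in wild-type morulae. It was at 0.413 to 1.07 CPM there and at 4.03 to 11.1 CPM in knockout morulae, from 88.2 CPM or more at L2C.

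Hormad1 (chr3:95559677-95587671), a protein of the meiotic chromosome axis, changed direction. It was at 115, 164, 116 and 112 CPM in wild-type L2C and at 15.1, 6.37, 14.4 and 17.6 CPM in wild-type morulae. Knockout levels were 125, 133, 135 and 116 CPM at L2C and 266, 315, 186 and 157 CPM at morula. The 2 L2C groups overlapped, while at morula the lowest knockout library was far above the highest wild-type one (interaction 4.10 ± 0.38 SE, adjusted p = 1.02e-06, edgeR). Among 36 tested meiosis and germline genes, 8 were called above 0 and 4 below (33.3%), with a median of 0.46, and 5 were called above 0 without the wild-type libraries with a further index.

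Many transcripts of the 2-cell stage fell less as well. Of 52 tested, 24 were called above 0 and 2 below, with a median of 1.16. In the 33 members counted in every group, 14 were called above and 2 below, with a median of 0.81. The summed levels of all 52 overlapped at morula, at 6760.5, 6655, 7172 and 6789.8 CPM in wild type and 5551, 6729.8, 7217 and 6653 CPM in the knockout. At L2C the sums were 6960.3 to 8702 CPM and 6117 to 7243 CPM. Zfp352 (0.91 ± 0.70, adjusted p = 0.391, edgeR) and Zscan4c (3.11 ± 1.29, adjusted p = 0.0939, edgeR), also of this stage, were not called. The count called above 0 dropped to 14 when knockout morula replicate 2 was left out, and to 14 without the wild-type libraries with a further index. Tdpoz4 was at 133, 112, 144 and 160 CPM in wild-type L2C and at 4.35, 3.14, 4.41 and 2.75 CPM in wild-type morulae. In the knockout it went from 116, 97.9, 92.8 and 132 CPM to 14.9, 25, 11.2 and 11.9 CPM, so that 14.3% remained beside 2.66% in wild type. Zscan4d, a zinc finger protein of the 2-cell stage, differed between knockout pools: its morula levels were 18.9 and 7.45 CPM in replicates 1 and 2 and 0.163 and 0.079 CPM in replicates 3 and 4, beside 0.0764 to 1.14 CPM in wild type. Zscan4d averaged under 10 counts in wild-type morulae, and its interaction of 4.16 ± 1.38 (adjusted p = 0.0386, edgeR) went to 2.74 with an adjusted p of 0.17 without knockout morula replicate 1, and its call was lost in 10 of the 16 fits that left out 1 library.

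Genes that act in removing maternal RNA had 4 members called above 0 and 5 below among 37 tested (24.3%). Tut4, a uridylyl transferase that marks maternal RNA for decay, turned from a fall to a rise. It was at 11.4, 11.4, 14.9 and 17.2 CPM in wild-type morulae and at 38.8, 44.3, 44.6 and 46.0 CPM in knockout morulae, from 17.7 to 22.0 and 12.1 to 19.2 CPM at L2C (interaction 1.94 ± 0.22 SE, adjusted p = 9.67e-07, edgeR). Btg4, the adaptor that brings the deadenylase to maternal RNA, is itself such an RNA. From 562 CPM or more at L2C it was at 0.534 to 0.924 CPM in wild-type morulae, under 10 counts on average, and at 1.82 to 2.94 CPM in knockout morulae.

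Many genes transcribed by p53 rose more or fell less in the knockout. Of 64 tested p53 targets, 28 were called above 0 and 2 below (46.9% beside 21.2% of all genes), with a median of 0.99. Their median stage change was 0.54 in wild type and 1.56 in the knockout. The summed level of the list was 3772, 3597, 3869.8 and 3486 CPM in wild-type morulae and 6615, 6784, 5301 and 5583 CPM in knockout morulae, with 2709 to 2859 CPM in all 8 L2C libraries. Knockout and wild type thus overlapped at L2C and were apart at morula.

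Cdkn1a (chr17:29090976-29100727), the inhibitor of cyclin-dependent kinases p21, was at 60.5, 68.8, 65.3 and 46.7 CPM in wild-type L2C and at 74.1, 46.1, 67.4 and 65.4 CPM in wild-type morulae. It was at 57.1, 94.5, 46.4 and 67.2 CPM in knockout L2C and at 409, 497, 296 and 357 CPM in knockout morulae. Of these 4 groups only the knockout morulae were high, with no overlap with the other three. The wild-type change was 0.07 ± 0.24 and the knockout change 2.56 ± 0.24 (interaction 2.49 ± 0.33 SE, adjusted p = 4.27e-05, edgeR). Its promoter in the RefSeq table for GRCm38.p6 (chr17:29090729-29091028, plus strand, 250 bases before to 50 after the listed start) is shown because a match to the p53 consensus lies in it. The consensus was searched as RRRCWWGYYY, a short stretch of any bases or none, and RRRCWWGYYY again (R is A or G, W is A or T, Y is C or T). Capitals mark the match, whose first base is 73 bases before the start. They cover 32 bases and include the stretch between the copies, which is no part of the consensus.
Cdkn1a: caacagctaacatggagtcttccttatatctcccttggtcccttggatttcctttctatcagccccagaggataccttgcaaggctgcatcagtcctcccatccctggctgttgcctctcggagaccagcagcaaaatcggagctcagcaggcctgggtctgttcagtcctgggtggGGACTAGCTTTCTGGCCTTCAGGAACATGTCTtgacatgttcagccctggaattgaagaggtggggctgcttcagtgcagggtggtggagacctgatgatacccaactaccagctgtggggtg
The consensus was searched on both strands of 12007 promoters matched to tested genes by symbol, and 10 (0.0833%) held it. Cdkn1a was the only 1 of 54 p53 targets with a promoter to do so. This motif was added to the search after the data had been seen, and a match does not show binding.

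Btg2, an antiproliferative p53 target (chr1:134075170-134079120), turned from a fall to a rise. It was at 25.4, 19, 38.2 and 15.3 CPM in wild-type L2C and at 9.96, 8.10, 9.66 and 4.20 CPM in wild-type morulae. In the knockout it was at 24.3, 13.3, 18.4 and 15.8 CPM at L2C and at 116, 142, 73.7 and 74.4 CPM at morula. The interaction of 4.12 ± 0.54 (SE, adjusted p = 4.45e-05, edgeR) was the largest among the named genes with a mean of at least 10 counts in every group. Plk2, a polo-like kinase, did not change in a way that passed the test in wild type (-0.03 ± 0.26) and rose 12.3-fold in the knockout, to 169.7, 167, 99.5 and 158 CPM. Pmaip1, the BH3-only protein Noxa, had an interaction of 2.86 ± 0.28 and reached a mean of 79.4 CPM in knockout morulae beside 14.8 CPM in wild type.

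Mdm2 (chr10:117688875-117710758), the ubiquitin ligase that degrades p53, fell in wild type from 112, 130.1, 127 and 120.4 CPM to 84.3, 68.3, 80 and 68.5 CPM. Knockout levels rose from 119.7, 126, 128 and 127 CPM to 289, 266, 209 and 219.9 CPM (interaction 1.67 ± 0.19 SE, adjusted p = 9.11e-07, edgeR). Ccng1, a cyclin G, rose in both genotypes and rose more in the knockout (interaction 1.34 ± 0.28). Zmat3, an RNA-binding zinc finger protein, rose 3.07-fold in wild type and 13.2-fold in the knockout. Trp53inp1, a promoter of p53 activity, fell by 1.85 ± 0.15 in wild type and had a change of 0.01 ± 0.14 in the knockout. Of 27 BCL2 family and caspase genes, 6 were called above 0 and 2 below (29.6%), with a median of 0.17, and of the 21 counted in every group 3 and 2, with a median of -0.16. Among the calls were Apaf1, the scaffold of the apoptosome, at 1.07, and Birc3, an inhibitor of apoptosis, at -0.80.

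**Figure D4:**
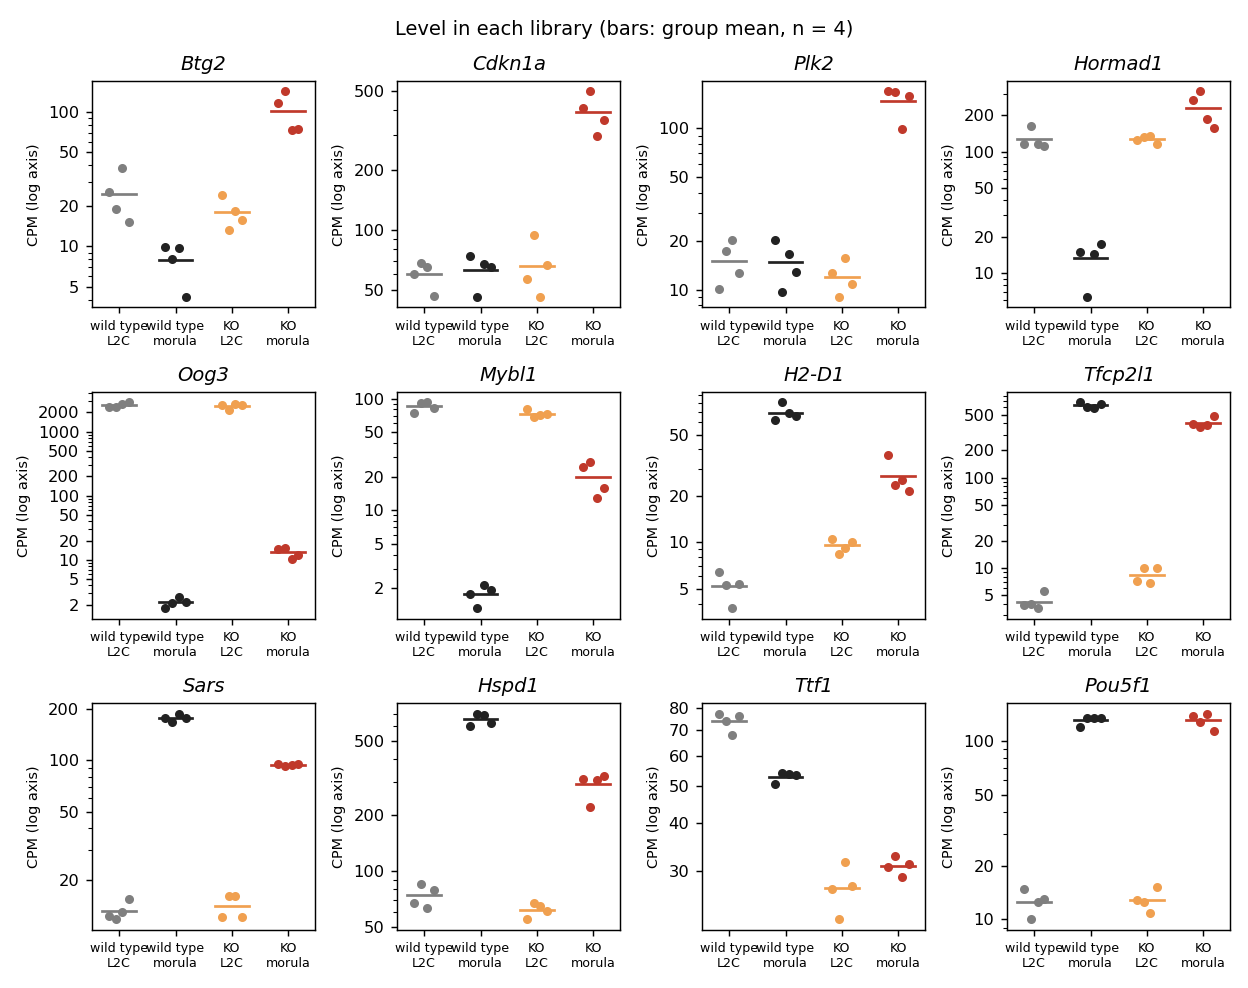
CPM (log axis) of 12 genes in each of the 16 libraries (points), with the mean of each group of 4 as a horizontal bar. Btg2, Cdkn1a and Plk2 are highest in the knockout morulae. Oog3 and Mybl1 fall less in the knockout, and Hormad1 falls in wild type and rises in the knockout. H2-D1, Tfcp2l1, Sars and Hspd1 rise less. Ttf1 is lower in the knockout at both stages, and Pou5f1 means are 130.4 and 130.1 CPM at morula.

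Genes of cytosolic ribosomal proteins, which rise strongly in this interval, mostly rose more in the knockout. Of 81 tested, 50 were called above 0 and 1 below (63.0%, beside 21.2% of all genes), with a median of 0.41. The median change was 2.35 in wild type and 2.75 in the knockout. Their summed level was 22761 to 25758 CPM in wild-type L2C and 20254 to 21800.3 CPM in knockout L2C, and then 114794, 106477, 114596 and 112936 CPM in wild-type morulae and 137413, 136906, 130954 and 119915 CPM in knockout morulae. The knockout was lower at L2C and higher at morula, with no overlap at either stage. Rpl41, of the large subunit, and Rps26, of the small one, were called in opposite directions at the 2 stages: Rpl41 differed by -0.30 at L2C and 0.43 at morula, and Rps26 by -0.39 and 0.27. Rps27l, which is also a p53 target, had an interaction of 1.01 ± 0.15. Ribosomal protein genes have many near-identical pseudogenes, so their single levels are uncertain.

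Of 67 factors that assemble the small ribosomal subunit, 4 were called above 0 and 23 below (40.3%), with a median of -0.19. Of 74 factors of the large subunit, 5 were called above and 12 below, with a median of -0.08, and this share of 23% was near that of all genes. Without the wild-type libraries with a further index, the counts were 3 above and 14 below for the small subunit and 5 above and 6 below for the large one. Nat10, the acetyltransferase of 18S ribosomal RNA, was at 31.7, 28.2, 28.6 and 25.1 CPM in wild-type L2C and at 53.3, 48.1, 54.9 and 50.9 CPM in wild-type morulae. In the knockout it went from 31.7, 40.2, 37.4 and 30.9 CPM to 22.2, 24.8, 27.1 and 29.7 CPM, a rise turned to a fall (interaction -1.30 ± 0.16 SE, adjusted p = 2.59e-06, edgeR). Heatr3, which helps to import ribosomal proteins into the nucleus, turned in the same way (-0.92 ± 0.11). The assembly factors Imp4 (-0.73) and Cebpz (-0.88) were also below 0, whereas Nol7 (0.86) and Znhit6 (0.82) were above.

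Among 33 genes of RNA polymerase I transcription, the process in which Ttf1 acts, 11 were called above 0 and 2 below (39.4%), with a median of 0.13. Polr1b, the second largest subunit of the polymerase, rose from a mean of 62.4 to 152 CPM in wild type and from 66.5 to 91.1 CPM in the knockout (interaction -0.83 ± 0.14 SE, adjusted p = 0.000135, edgeR), while the subunit Znrd1 was at 0.58. Hosts of small nucleolar RNAs, whose spliced RNAs are mostly short-lived, were called above 0 in 9 of 23 and below in 1, with a median of 0.38. Snhg1 went from 78.9 to 92.9 CPM at L2C to 157 to 174 CPM in wild-type morulae, and from 56.7 to 73.2 CPM to 234 to 337 CPM in the knockout (interaction 1.24 ± 0.19).

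Genes of the enzymes that charge transfer RNAs, the aminoacyl-tRNA synthetases, mostly rose less in the knockout. Of 22 tested, 18 were called below 0 and 0 above (81.8%), with a median of -0.56. Their summed level was 4512, 4319.6, 4724 and 4511 CPM in wild-type morulae and 3387, 3246, 3144 and 3307 CPM in knockout morulae, from 1414 to 1503 and 1477 to 1673 CPM at L2C. Sars, for serine (chr3:108424865-108445209), rose from 12.3, 11.7, 13 and 15.4 CPM to 177, 168, 187 and 176 CPM in wild type. The knockout rose from 12.1, 16.1, 16.1 and 12.1 CPM to 95.5, 92.7, 93 and 95.0 CPM, with no overlap at morula (interaction -1.02 ± 0.16 SE, adjusted p = 4.45e-05, edgeR). Qars, for glutamine, had an interaction of -0.95 ± 0.13. The direction below 0 was kept by the median (-0.51) without the wild-type libraries with a further index, though only 7 members were then called.

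The promoters of 3 synthetase genes are shown because 5 of the 14 synthetases with a promoter in the table hold TGATGNAA, the core letters bound by ATF4 and its partners. All 5 were called below 0, but so were 18 of the 22 synthetases tested, so the calls do not set the holders apart from the list. Capitals mark the letters on either strand. Aars, for alanine, lies at chr8:111033592-111033891 (plus strand), Gars, for glycine, at chr6:55037751-55038050 (plus strand) and Tars, for threonine, at chr15:11399609-11399908 (minus strand), from RefSeq on GRCm38.p6.
Aars: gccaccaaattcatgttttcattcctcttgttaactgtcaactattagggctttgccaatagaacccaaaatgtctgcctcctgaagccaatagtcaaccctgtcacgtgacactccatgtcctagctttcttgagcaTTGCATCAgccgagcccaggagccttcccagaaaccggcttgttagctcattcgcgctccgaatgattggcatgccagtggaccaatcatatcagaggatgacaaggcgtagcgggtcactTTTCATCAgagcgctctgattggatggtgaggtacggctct
Gars: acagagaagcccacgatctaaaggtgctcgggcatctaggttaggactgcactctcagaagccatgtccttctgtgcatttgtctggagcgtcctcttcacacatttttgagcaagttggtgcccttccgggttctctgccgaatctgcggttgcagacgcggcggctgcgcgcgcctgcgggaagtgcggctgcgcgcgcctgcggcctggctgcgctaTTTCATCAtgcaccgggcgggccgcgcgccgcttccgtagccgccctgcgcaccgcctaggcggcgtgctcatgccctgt
Tars: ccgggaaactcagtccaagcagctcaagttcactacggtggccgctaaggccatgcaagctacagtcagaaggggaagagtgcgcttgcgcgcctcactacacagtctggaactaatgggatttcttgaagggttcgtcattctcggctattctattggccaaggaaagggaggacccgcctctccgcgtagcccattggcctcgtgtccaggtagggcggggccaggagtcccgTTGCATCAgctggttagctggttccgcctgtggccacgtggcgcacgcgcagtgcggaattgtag
Over all 12007 promoters, 365 (3.04%) held these letters, and 56 of those genes were called above 0 and 30 below. Interactions were -0.52 for Aars, -0.63 for Gars, -0.76 for Tars, -0.35 for Iars and -0.40 for Yars. Tars, Iars and Yars lost their call in at least 1 fit that left out a library, and all 5 lost it without the wild-type libraries with a further index (adjusted p of 0.0677 for Aars and 0.0956 for Gars, edgeR). The motif was added after the data had been seen. Aars, which holds 2 matches, went from 52.7 to 58.2 CPM to 72.4 to 81.1 CPM in wild type but from 51.8 to 65.8 CPM to 48.0 to 60.3 CPM in the knockout.

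The integrated stress response, in which ATF4 is the main transcription factor, did not move one way. Of 35 genes, 11 were called above 0 and 5 below (45.7%), with a median of 0.49, and 6 were called above 0 without the wild-type libraries with a further index. The letters TGATGNAA were in 9 of its 31 promoters (29.0%), and of those genes 1 was called above 0 and 0 below. Atf4 fell from 285 to 341 CPM to 174, 179.8, 209.7 and 195 CPM in wild type. It was at 242 to 279 CPM and then at 301, 308, 288 and 270.3 CPM in the knockout (interaction 0.89 ± 0.15 SE, adjusted p = 0.000114, edgeR). Sesn2, an inhibitor of mTORC1 that p53 also drives, had changes of -3.25 in wild type and -1.92 in the knockout, and Ddit4, another inhibitor of mTORC1, had an interaction of 1.64 ± 0.24.

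Part of the chaperone genes rose less. Among 45 heat shock and chaperone genes 4 were called above 0 and 19 below (51.1%), with a median of -0.39, and 12 were called below without the wild-type libraries with a further index. Hspd1, the chaperonin of mitochondria, went from 67.7, 85.8, 63.3 and 79.5 CPM to 603, 703, 691 and 625 CPM in wild type, and from 55.0, 67.6, 64.6 and 60.9 CPM to 314, 222, 309 and 325 CPM in the knockout (interaction -0.91 ± 0.17 SE, adjusted p = 0.000342, edgeR). Ahsa1, which activates the chaperone HSP90, was at -0.71, and Cct3, of the cytosolic chaperonin, at -0.58.

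Genes of the response to unfolded proteins in the endoplasmic reticulum had 5 calls above 0 and 13 below among 45, with a median of -0.28, and 8 were called below without those libraries. Hspa5 (chr2:34771970-34777547), the main chaperone of this compartment, was at 389.8, 362, 367 and 348 CPM in wild-type L2C and at 1294, 662, 691 and 884 CPM in wild-type morulae. In the knockout it was at 317, 371, 388 and 317 CPM at L2C and at 186, 221, 182 and 479.6 CPM at morula. Every knockout morula library was below every wild-type one, and replicate 4 stood apart from the other knockout pools (interaction -1.65 ± 0.39 SE, adjusted p = 0.00496, edgeR). Without that replicate the value was -2.10. Calr, a chaperone of glycoproteins, Pdia6, a disulfide isomerase, and Creld2, a smaller endoplasmic reticulum protein, had interactions of -1.09, -1.12 and -0.57. Pdia6 and Creld2 lost their call without the wild-type libraries with a further index (adjusted p of 0.0537 and 0.0995, edgeR).

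Promoters of these 4 genes are shown since each holds the endoplasmic reticulum stress element (ERSE), searched on both strands as CCAAT, 9 bases of any kind and CCACG. Capitals mark it. The RefSeq positions on GRCm38.p6 are chr2:34771840-34772139 (plus strand), chr8:84846882-84847181 (minus strand), chr12:17266339-17266638 (plus strand) and chr15:88819396-88819695 (plus strand).
Hspa5: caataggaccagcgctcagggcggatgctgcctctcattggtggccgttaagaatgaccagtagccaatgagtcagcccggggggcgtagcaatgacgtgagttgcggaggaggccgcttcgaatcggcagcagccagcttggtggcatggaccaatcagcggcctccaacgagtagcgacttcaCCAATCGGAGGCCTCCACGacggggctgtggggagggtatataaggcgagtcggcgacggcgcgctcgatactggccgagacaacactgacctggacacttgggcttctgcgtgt
Calr: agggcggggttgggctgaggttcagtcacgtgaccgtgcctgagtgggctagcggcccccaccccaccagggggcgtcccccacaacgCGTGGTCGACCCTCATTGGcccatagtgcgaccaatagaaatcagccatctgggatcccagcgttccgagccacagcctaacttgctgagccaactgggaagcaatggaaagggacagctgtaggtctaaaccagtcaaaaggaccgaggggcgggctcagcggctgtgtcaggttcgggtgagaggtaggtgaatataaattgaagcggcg
Pdia6: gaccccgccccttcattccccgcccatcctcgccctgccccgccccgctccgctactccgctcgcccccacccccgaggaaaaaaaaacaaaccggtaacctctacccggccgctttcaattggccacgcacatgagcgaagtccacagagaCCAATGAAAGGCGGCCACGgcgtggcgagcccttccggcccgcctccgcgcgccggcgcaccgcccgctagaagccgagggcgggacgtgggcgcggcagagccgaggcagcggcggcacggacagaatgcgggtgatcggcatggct
Creld2: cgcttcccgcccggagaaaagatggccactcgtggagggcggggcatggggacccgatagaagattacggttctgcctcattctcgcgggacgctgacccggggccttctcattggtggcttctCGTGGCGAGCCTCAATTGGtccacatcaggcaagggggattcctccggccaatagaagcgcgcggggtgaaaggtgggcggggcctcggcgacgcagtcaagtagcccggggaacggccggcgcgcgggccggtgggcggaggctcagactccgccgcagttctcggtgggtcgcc
The element was in 21 of 12007 promoters (0.175%) and in 9 of the 36 promoters of this list (25%). Besides the 4 called genes, Hsp90b1 (-1.10, adjusted p = 0.0746, edgeR) and Syvn1 (-0.50) lay below 0 without passing the test, Canx was at -0.02, Dnajc3 at 0.03 and Derl3 at 0.38. Derl1, a channel for misfolded proteins, had the smallest p of the list, at -1.17 ± 0.22, while Selenok (0.65) and Sil1 (0.99) were above 0.

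Calls below 0 outnumbered those above in the proteasome and the lysosome too. Of 48 proteasome genes 17 were called below 0 and 0 above (35.4%), with a median of -0.24, and 5 were called without the wild-type libraries with a further index. Psmd2, a scaffold of the regulatory particle, rose to 438 to 512 CPM in wild-type morulae and to 319 to 335 CPM in knockout morulae (interaction -0.69 ± 0.12). Of 48 lysosome genes 3 were called above 0 and 16 below (39.6%), and 7 were called below without those libraries. Atp6ap1, an accessory subunit of the proton pump, was at 29.8 to 35.5 CPM in wild-type L2C and 47.6 to 61.3 CPM in knockout L2C, and then at 251 to 288 and 116 to 141 CPM (interaction -1.78 ± 0.23 SE, adjusted p = 6.79e-06, edgeR). The letters CACGTG, read the same on both strands, were in 14 of the 38 lysosome promoters (36.8%), and 6 of those 14 genes were called below 0 and 1 above. Over all promoters 1315 (11%) held these letters, and 196 of those genes were called below 0 and 144 above.

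Calls among cell cycle and replication genes were mostly below 0. Of 71 mitosis and cell cycle genes 3 were called above 0 and 26 below (40.8%), with a median of -0.27. Of 59 DNA replication genes 1 was called above and 19 below (33.9%), with a median of -0.29. Without the wild-type libraries with a further index, 17 and 10 were called below. Ccne1, cyclin E1, was at 629, 579, 612 and 587 CPM in wild-type L2C and at 566, 483, 537 and 512 CPM in wild-type morulae. Knockout levels went from 644, 615, 571 and 698 CPM to 234, 272, 335 and 294 CPM (interaction -0.96 ± 0.16 SE, adjusted p = 8.38e-05, edgeR). Mcm6, a subunit of the replicative helicase, rose from a mean of 144 to 269 CPM in wild type, whereas the knockout means were 171 and 145 CPM (interaction -1.14 ± 0.19). Aurkc, an Aurora kinase of early embryos, was at -1.39, and Spc25, a kinetochore protein whose transcript falls, was at 1.22.

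Lineage genes were divided. Pou5f1, which encodes OCT4, rose from a mean of 12.6 to 130.4 CPM in wild type and from 12.9 to 130.1 CPM in the knockout, with an interaction of -0.03 ± 0.18 (adjusted p = 0.932, edgeR). Tfcp2l1 (chr1:118627945-118685168), a transcription factor of naive pluripotency, was at 3.87, 4.02, 3.58 and 5.55 CPM in wild-type L2C and higher, at 7.11, 10.0, 6.83 and 9.92 CPM, in knockout L2C. At morula the order was reversed, with 680.3, 599, 592 and 655 CPM in wild type and 393, 366, 386 and 478 CPM in the knockout (interaction -1.62 ± 0.19 SE, adjusted p = 1.04e-06, edgeR). Dppa3, a maternal factor that protects DNA methylation, did the opposite, with effects of -0.49 at L2C and 0.46 at morula.

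Nanog was near 1 CPM at L2C in all libraries (0.33 to 2.57 CPM) and reached 793, 726, 733 and 792 CPM in wild-type morulae. The knockout morulae held 229.8, 126, 198 and 376 CPM, with no overlap. The morula effect was -1.71 (adjusted p = 0.000168, edgeR) and the interaction -2.56 ± 0.70 (adjusted p = 0.0134, edgeR). The interaction rested on few L2C reads and was at -2.23 with an adjusted p of 0.0546 (edgeR) without knockout L2C replicate 4, and at -2.26 (adjusted p = 0.0735, edgeR) without the wild-type libraries with a further index. Sox2 was at -1.19 ± 0.57 (adjusted p = 0.137, edgeR) with under 5 CPM in every library, and at -1.87 (adjusted p = 0.0145) without knockout morula replicate 4. Of 42 pluripotency genes 6 were called above 0 and 8 below (33.3%).

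The trophectoderm factors Cdx2 (-0.97 ± 1.12) and Gata3 (-0.71 ± 0.28, adjusted p = 0.0705, edgeR) did not pass the test, although DESeq2 called Gata3 (adjusted p = 0.045). Cdx2 averaged under 10 counts in its lowest group. Krt8 and Krt18 had interactions of -0.95 ± 0.49 and -0.56 ± 0.37 that did not pass either. Krt8 was at 169, 203, 172 and 183 CPM in wild-type morulae and at 87.5, 92.2, 74.6 and 95.8 CPM in knockout morulae. Gata6, of primitive endoderm, was at 0.56 (adjusted p = 0.228, edgeR). Of 43 trophectoderm genes 3 were called above 0 and 7 below (23.3%), and of 26 primitive endoderm genes 0 and 2 (7.69%, under the 21.2% of all genes). The trophectoderm list summed to 3852, 3944, 4388 and 4291 CPM in wild-type and 3443, 3406, 3391 and 3363 CPM in knockout morulae. At L2C its sums overlapped, at 880.4 to 980.1 CPM in wild type and 958 to 994 CPM in the knockout.

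Cell adhesion genes of compaction had 4 members called above 0 and 9 below among 58, a share of 22.4% that is close to that of all genes. Their summed level was nevertheless lower in knockout morulae, at 5601, 5852, 5878 and 5914 CPM beside 7088, 7279.5, 7265 and 7171 CPM in wild type. At L2C the sums were 2567 to 2657 CPM in the knockout and 2420.3 to 2476 CPM in wild type. The groups did not overlap at either stage. Epcam, an adhesion molecule, rose from 143 to 162 CPM to 270.3 to 401 CPM in wild type. The knockout was at 152 to 196 CPM at L2C and at 167, 113, 121 and 165 CPM at morula (interaction -1.43 ± 0.22 SE, adjusted p = 7.59e-05, edgeR). Ocln, the tight junction protein occludin, was higher in the knockout at L2C by 0.75 and lower at morula by 0.39. In the Hippo pathway, Yap1 (-0.33) and Stk4 (0.38) lost their call when single libraries were left out.

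The smaller rises with the largest size included genes outside these lists. H2-D1 (chr17:35262730-35267499), a class I histocompatibility gene, was at 6.37, 5.29, 3.73 and 5.35 CPM in wild-type L2C and at 10.5, 8.36, 9.22 and 10.1 CPM in knockout L2C. It reached 62.5, 80.7, 68.9 and 65.6 CPM in wild-type morulae and 36.7, 23.6, 25.3 and 21.5 CPM in knockout morulae, a 13.4-fold against a 2.81-fold rise (interaction -2.25 ± 0.27 SE, adjusted p = 1.29e-06, edgeR). Class I genes resemble each other, so its single level is uncertain. Ptpn6, the phosphatase SHP-1, rose 32.7-fold in wild type and 8.51-fold in the knockout. Map2k6, a kinase that activates p38, was at 27.3 to 39.0 CPM in wild-type morulae and 5.54 to 13.4 CPM in knockout morulae, from 2.29 CPM or less at L2C.

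Genes that fell more in the knockout included Abhd12, a lysophospholipase, at -1.78, and Cptp, a carrier of ceramide-1-phosphate, at -1.59 ± 0.17. Cptp was higher in knockout than in wild-type L2C, at 242, 224, 195 and 255 CPM against 179, 146, 125 and 156 CPM. It was lower at morula, at 21.8, 21.9, 25.6 and 31.0 CPM against 44.9, 57.5, 47.5 and 49.9 CPM. Shmt1, the cytosolic serine hydroxymethyltransferase, kept 69.2% of its L2C level in wild type and 25.4% in the knockout. Lncenc1, a long non-coding RNA of embryonic stem cells, had no called change in wild type (30.3 CPM at morula) and fell to 8.90, 6.50, 8.14 and 14.6 CPM in the knockout (interaction -2.35 ± 0.36 SE, adjusted p = 9.12e-05, edgeR).

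Among metabolic lists, nuclear genes of oxidative phosphorylation had 7 calls above 0 and 10 below among 76 with a median of 0.02, and the share of 22.4% was near that of all genes. Of 15 transcripts of the mitochondrial genome 6 were called above 0 and 0 below, with a median of 0.53. The share of counts on the mitochondrial chromosome was 2.24 to 2.45% in wild-type and 3.14 to 3.76% in knockout morulae, and 5.50 to 6.03% and 5.56 to 6.84% at L2C. Glycolysis had 2 calls above and 7 below among 26 (34.6%). The maternal lactate dehydrogenase subunit Ldhb kept 1.18% of its L2C level in wild type and 4.47% in the knockout, and Pgam1, phosphoglycerate mutase, had an interaction of -0.98 ± 0.15.

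Most of the remaining lists had few calls or no clear direction. Translation factors had 4 calls above and 8 below among 51 (23.5%), with Eif1 at 0.62 and Eif1a at -0.52. Calls above and below numbered 2 and 2 of 26 for sterol biosynthesis, 3 and 3 of 36 for antioxidant genes, 4 and 1 of 29 for the Hippo pathway, 4 and 2 of 24 for DNA methylation and imprint maintenance, and 2 and 7 of 31 for imprinted genes, including Meg3 at -1.87. The calls of imprinted genes were thus mostly below 0 (29.0% called, median -0.29). The DNA methylation list summed to 4339 to 5622 CPM in wild-type and 3594 to 4017 CPM in knockout L2C. At morula its sums were 6118 to 6580 CPM in wild type and 7442 to 8908 CPM in the knockout, without overlap at either stage. Interferon response genes had 4 and 2 of 22. Among them Cxcl10, a chemokine, was at 15.6, 17.1, 8.14 and 2.77 CPM in knockout morulae and at 0.827 CPM or less in wild-type ones, and Ifitm3, a membrane protein, was at 2.45 to 5.21 CPM in knockout morulae and at 0.711 CPM or less, under 10 counts on average, in wild-type ones.

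Summed markers of companion cells and of blood were higher in knockout than in wild-type morulae without overlap, while those of sperm overlapped. Of 9 tested markers of cells that accompany the oocyte 2 were called above 0 and 0 below (22.2%), and of 8 blood markers 2 and 0 (25%), both near the 21.2% of all genes, and of 5 sperm markers 3 and 0. The summed levels in knockout and wild-type morulae were 76.8 to 117 and 39.3 to 56.1 CPM for the 32 companion cell markers, 17.7 to 24.9 and 15.6 to 20.9 CPM for the sperm markers, and 23.9 to 40.2 and at most 14.8 CPM for the 20 blood markers. Genes with at least 1 count numbered 24043 to 24906 in knockout and 22810 to 23288 in wild-type morulae. Their part in the smaller falls was not tested. The blood markers Hbb-bs and S100a8 were at 0. Another, Hba-a1, an alpha globin with a near-identical copy, was at 6.19 to 10.4 CPM in knockout and 1.14 to 2.44 CPM in wild-type morulae, with 3.97 to 18.3 CPM over the L2C libraries.

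**Figure D5:**
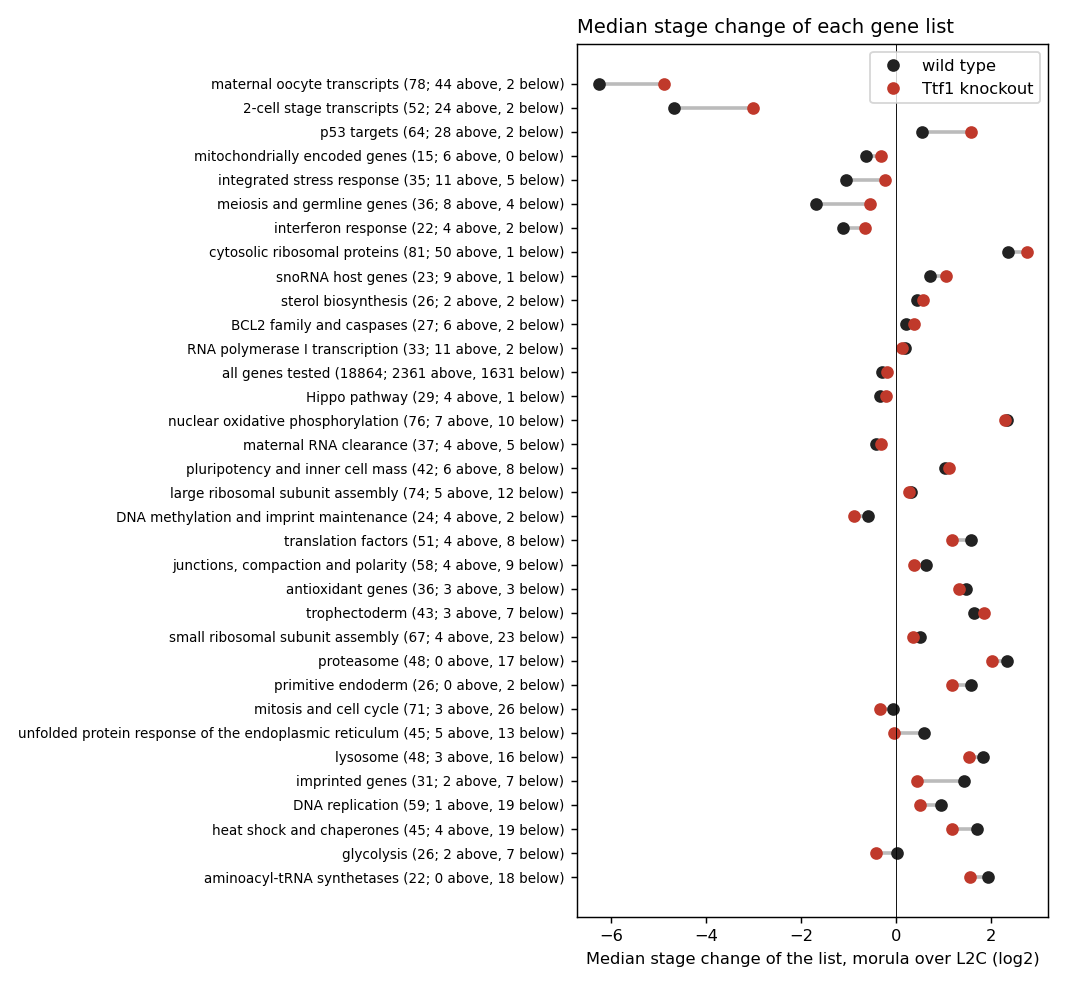
Median log2 change from L2C to morula of each gene list with at least 15 tested members, in wild type (black) and in the Ttf1 knockout (red), ordered by the median interaction; brackets give the members tested and those called above and below 0. Maternal and 2-cell transcripts fall less (medians of -6.27 and -4.89, and -4.69 and -3.02), and the aminoacyl-tRNA synthetases at the foot rise less (1.93 and 1.55).

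A few further genes were near absent at 1 stage. Nectin4, an adhesion molecule of epithelia, was under 1 CPM in all L2C libraries and at 1.56 CPM or less in wild-type morulae, but at 26.1, 28.8, 16.9 and 14.4 CPM in knockout morulae. Fos, an immediate early transcription factor, was at 10.2, 10.5, 8.79 and 10.0 CPM in knockout morulae and at 1.82 CPM or less elsewhere. Gabra3, a subunit of a GABA receptor, fell from 16.4 to 26.6 CPM at L2C to 0 in all 4 wild-type morula libraries and to 0.556, 0.0866, 0.57 and 0.316 CPM in the knockout. Plk5 was at 0.0746 CPM or less in wild-type and 0.137 to 0.357 CPM in knockout L2C, with 12.6 to 18.9 and 11.6 to 16.3 CPM at morula, so its called interaction rests on traces at L2C.

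The altered stage change was also set against that of the other knockout. When the stage change of Ttf1 knockout embryos was tested against that of Zfp622 knockout embryos, 1 of 18864 genes was called (0.0053%), with 2041 (10.8%) at an unadjusted p under 0.05. DESeq2 called 155, and without a filter on low counts 302 were called. The called gene was an unnamed one on an unplaced contig (ENSMUSG00000079808), at 0.65. The median difference was 0.021 with a median SE of 0.388, close to that of the interaction itself (0.393). A difference that missed the threshold does not show that the knockouts act alike.

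For single genes, levels in the Zfp622 knockout are given beside the others. Cdkn1a was at a mean of 364 CPM in Zfp622 knockout morulae, beside 389.9 in Ttf1 knockout and 63.3 in wild-type ones, and the stage changes of the knockouts differed by 0.07 ± 0.33. Oog3 was at 13.9 CPM beside 13.1 and 2.19, Sars at 109.8 beside 94.0 and 177, and Tfcp2l1 at 411 beside 406 and 631. These Zfp622 libraries shared the lane number of the wild-type ones. The differences between the knockouts were largest, among the named genes, for Cdx2 (-3.22 ± 1.34), Plk5 (-2.65 ± 0.75) and Fos (2.28 ± 0.88), with adjusted p-values of 0.385, 0.185 and 0.337 (edgeR). Hormad1 was at a mean of 231 CPM in Ttf1 and 143 CPM in Zfp622 knockout morulae (difference 0.86 ± 0.36, adjusted p = 0.398, edgeR), and the ribosomal protein genes had a median difference of 0.30 with none called.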

How the data were processed

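Gene counts of 24 RNA libraries were used as deposited. The authors aligned reads with HISAT2 2.2.1, per the submitters' processing notes, and made raw counts per gene with featureCounts 2.0.1 on exons of GRCm38, per the file headers, with no strand or multi-mapping option listed. The files hold 55471 gene identifiers.

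All 24 libraries were fitted together with edgeR 4.0.16 (R 4.3.3): filtering by expression in the 6 groups, TMM scaling, robust quasi-likelihood tests and Benjamini-Hochberg adjustment over 18864 genes, with calls at an adjusted p of at most 0.05. The standard error is the log2 value divided by the root of F. On simulated counts over 18336 genes the interaction recovered 29.9% of 1.5-fold, 85.1% of 2-fold and 100% of 4-fold changes, and called 6 of 18136 unchanged genes. Changes were placed only in genes above a minimum level in wild type at both stages. The recovered shares therefore do not cover genes near absent at either stage. Only 67 genes were changed 1.5-fold, 67 2-fold and 66 4-fold, far fewer than the 3992 called in the data. Each gene was given the same spread in every group. Neither the recovered shares nor the false calls therefore cover data where as many genes change or where groups differ in spread. Library position used log2 CPM with a prior count of 2.

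The comparison, its 36 gene lists and the rule for named genes were chosen with earlier results of these data known. The rule took Ttf1, 10 fixed genes of the p53 pathway and the lineages, the largest interactions of each class (6 or 4) that kept their call without each library, and the 3 smallest p-values of each list with at least 3 calls. Hspa5, Calr, Pdia6, Creld2, Hspd1, the synthetases Aars, Gars, Tars, Iars and Yars, Krt8, Krt18, Hba-a1, Zscan4d, Zscan4c and Zfp352 were chosen after their values were seen. Alternatives were DESeq2 1.42.0, its size factors, total counts, no filter, no robust step, 16 libraries only, a replicate block, and libraries left out. Replicates of a group differed by more than counting noise, so none was merged.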

Additional observations from a re-analysis of the deposited data

Results flagged for a closer look

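The interaction is itself a difference between stages, and 3992 genes passed its test. Among the named genes, 13 had knockout effects called in opposite directions at L2C and morula. Lower at L2C and higher at morula were Rpl41 (interaction 0.72), Rps26 (0.66), Znrd1 (0.58), Nol7 (0.86) and Dppa3 (0.95). Higher at L2C and lower at morula were H2-D1 (-2.25), Cptp (-1.59), Imp4 (-0.73), Rrm1 (-0.87), Tfcp2l1 (-1.62), Ocln (-1.14), Tex19.1 (-1.06) and Atp6ap1 (-1.78).

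Single libraries stood far from the other 3 of their group in 34 of 538 sets of 4 values examined (6.32%), and chance alone gives about 1 in 20. In wild-type L2C these were Lncenc1 in replicate 1 (38.5 CPM), Hormad1 (164 CPM), Mcm6 (161 CPM) and Txnip (40.7 CPM) in replicate 2, Enpp3 (8.58 CPM) and Pdk1 (27.4 CPM) in replicate 3, and Hesx1 (7.53 CPM) and Ldhb (303 CPM) in replicate 4. In wild-type morulae they were Pou5f1 in replicate 1 (119.7 CPM), Abhd12 (15.2 CPM) and Dnaja2 (464 CPM) in replicate 2, and Nol7 in replicate 4 (179.7 CPM).

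In knockout L2C they were Tex15 (114 CPM), Ndufs1 (28.4 CPM), mt-Rnr1 (1995 CPM) and Khdc1c (64.4 CPM) in replicate 1, Slc19a1 (10.9 CPM), Psmd1 (89.7 CPM), Sdha (24.7 CPM) and Glb1 (85.4 CPM) in replicate 2, Ddit4 in replicate 3 (8.87 CPM), and Stox1 (60.2 CPM), Znrd1 (118 CPM), Dppa3 (2532 CPM), Ocln (29.6 CPM) and Zscan4c (35.0 CPM) in replicate 4. In knockout morulae they were Atp5a1 in replicate 1 (764 CPM), Usp17lb (31.2 CPM), Cebpz (36.8 CPM) and Hspd1 (222 CPM) in replicate 2, Taok3 (7.65 CPM) and Gars (151 CPM) in replicate 3, and Gab1 (57.1 CPM) and Hspa5 (479.6 CPM) in replicate 4.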

How the results depend on the processing

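No alternative turned the direction of a named gene that was called, and the shares of calls above 0 ran from 55.6% (DESeq2) to 61.9%. Calls of the interaction ran from 3357 to 4098 when 1 library was left out (1970 to 2473 above and 1356 to 1627 below), and 2006 passed with a 2-fold minimum. Without the 3 wild-type libraries of a further index there were 2132 (1319 above, 813 below), with 542 smaller rises, 31 rises turned, 223 larger rises, 848 smaller falls, 119 larger falls, 121 genes below 0 with no normal change, 115 effects at L2C and 3431 at morula; fewer samples enter that fit. Scaling by total counts gave 92 rises turned, 268 larger rises and 529 larger falls. With the direction from the Zfp622 knockout, 0 rises and 1 fall turned, and 645 rises and 452 falls were larger. Effects at L2C numbered 862 with DESeq2, 701 without a filter, and 180 to 390 with 1 library left out, from 389. The comparison of the knockouts gave 155 calls with DESeq2, 302 without a filter and 0 to 14 with 1 library left out.

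Leaving out 1 library gave 925 to 1135 smaller rises, 42 to 55 rises turned, 301 to 415 larger rises, 1346 to 1703 smaller falls, 86 to 119 falls turned and 223 to 309 larger falls. The position at morula differed by -0.079 to -0.0653. Of 3864 pairs of a named gene and an alternative, 75 lost and 11 gained a call. Deviations from the group means had correlations of -0.133 to 0.225 in the 24 pairs of same-numbered libraries. In the 72 pairs with different numbers they were -0.235 to 0.202. No pairing by number is stated, and these values cannot exclude a shared day or batch. A replicate block gave 2217 calls above and 1571 below, and 3718 of the 3992 genes were called again. Depth limits genes that are near 0 at 1 stage, where fitted values depend on the prior count.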
